A study of Mus musculus with 20 samples.

Results

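The 10 genes described here belong to the major histocompatibility complex (MHC) class I pathway and were followed in microglia of 5 mouse genotypes. They were taken by symbol from the 54838 genes counted in every library. They encode the class I heavy chains H2-K1 and H2-D1, the light chain B2m, the peptide transporter subunits Tap1 and Tap2, the loading factor Tapbp, the immunoproteasome subunits Psmb8, Psmb9 and Psmb10, and the transactivator Nlrc5. Each matched 1 Ensembl identifier, and all 10 passed the filter on low counts that left 12680 genes for testing.

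The RNA came from microglia, macrophages that live in brain tissue, isolated from frontal cortex at postnatal day 40. A library is 1 mouse, since the protocols in the labels state 1000 cells, high in CD11b and low in CD45, for every mouse. C4 is a complement component whose mouse gene is C4b, while hC4A and hC4B stand for the human forms. The labels name 4 wild-type mice (WT), 5 mice without C4 (C4-/-), 5 with human C4A on 1 allele (hC4A/-), 4 with human C4B on 1 allele (hC4B/-) and 2 with human C4A on both alleles (hC4A/A). What became of mouse C4 in the mice with human C4 is not said in their genotype names, and the labels give no strain, sex or litter.

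Class I molecules display peptides from inside the cell to CD8 T cells. The proteasome cuts proteins into peptides, the transporter of Tap1 and Tap2 carries them into the endoplasmic reticulum, and Tapbp (tapasin) bridges the transporter to an empty heavy chain held by B2m. Interferons raise most of these genes, partly through Nlrc5, and Psmb8, Psmb9 and Psmb10 then replace the constitutive catalytic subunits Psmb5, Psmb6 and Psmb7. Resting microglia are known for low surface class I that rises with inflammation.

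Of the 10 genes, 7 lie on mouse chromosome 17 with C4b (GRCm38 chr17:34728380-34743882), between 512.1 kb (Tap2) and 799.1 kb (Tapbp) from it. H2-D1 (chr17:35262730-35267499) is at higher coordinates than C4b. At lower coordinates are H2-K1 (chr17:33996017-34000347), Tapbp (chr17:33915899-33929292), Psmb9 (chr17:34181987-34187764), Tap1 (chr17:34187553-34197225), Psmb8 (chr17:34197721-34201454) and Tap2 (chr17:34203527-34216321). B2m is on chromosome 2 (chr2:122147686-122153083), and Psmb10 (chr8:105935735-105938444) and Nlrc5 (chr8:94434356-94527272) are on chromosome 8. Psmb9 and Tap1 are read in opposite directions from RefSeq starts 226 bases apart.

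RefSeq promoter windows (GRCm38.p6, 250 bases before to 50 after each gene's start) were found for 8 of the 10 genes, all but Tap2 and Nlrc5. Letters of the NF-kB motif GGGATTCCC were found on either strand in the windows of H2-K1 and H2-D1, against 0.414% of the 27025 genes with a window. The 30 bases around that match, in capitals, are shown because the heavy chain genes carry almost the same stretch: 29 of the 30 bases are identical. The stretch is at chr17:34000438-34000467 on the minus strand for H2-K1 and at chr17:35262914-35262943 on the plus strand for H2-D1, where GENCODE also annotates an exon.
H2-K1: cccagggctgGGGATTCCCcatctccacag
H2-D1: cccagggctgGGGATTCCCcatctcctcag

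The interferon response motif, searched as the letters GAAANNGAA alone, was present in the B2m window only, against 9.76% of all genes. B2m is shown from the window's first base to the base before its first annotated exon (chr2:122147437-122147685, plus strand), as the most abundant of the 10 genes, with the match 139 bases before the start in capitals.
B2m: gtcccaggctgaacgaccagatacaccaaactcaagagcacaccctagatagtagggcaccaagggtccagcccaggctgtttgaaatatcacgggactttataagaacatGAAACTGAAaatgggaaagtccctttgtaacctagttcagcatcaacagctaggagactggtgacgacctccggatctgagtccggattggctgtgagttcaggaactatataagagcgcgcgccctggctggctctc

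The gamma-activated motif TTCNNNGAA was present in the Psmb8 window only, against 9.55% of all genes. Its 30 bases (chr17:34198088-34198117, plus strand), which overlap an annotated exon, are shown with the match in capitals.
Psmb8: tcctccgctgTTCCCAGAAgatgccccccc

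CCAAT was found in 6 of the 8 windows (H2-K1, H2-D1, B2m, Tap1, Tapbp and Psmb9), against 41.1% of all genes, and the cyclic AMP element TGACGTCA in none of the 8, against 2.03%. Overlapping matches were each counted. The CCAAT matches of Tap1 and Psmb9 are the same site (chr17:34187334-34187338), counted for both genes. The Tapbp window (chr17:33919228-33919527) lies inside the annotated span of the gene. These matches describe letters and do not show binding. Each motif was searched only as the letters given, so a window without a match may still hold another form of it.

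Libraries held 855099 to 2735181 counts over all genes. The predicted gene Gm10800, which covers satellite-like repeats, took 9.61% to 65.9% of them. In 4 libraries, called broad here, 27178 to 30907 genes were detected, against 11348 to 23912 in the other 16. They are replicate 3 of C4-/-, replicate 2 of hC4A/A, and both replicates 2 and 3 of hC4B/-. All 10 microglia markers were detected in every library. C4b did not follow the genotype labels, with 0 to 2 counts in WT libraries and 4 to 428 in every other library, those labelled C4-/- included, so genotype names here are those of the labels. The 4 WT libraries also carry deposited names of another kind than the other 16, and in WT contrasts genotype cannot be told apart from that difference.

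No member passed an adjusted p of 0.05 in any of 10 comparisons by edgeR's quasi-likelihood test with Benjamini-Hochberg adjustment over all 12680 genes, nor by DESeq2 or voom. The share of all genes that passed was 0% in each of the 8 comparisons between single genotypes. It was 0.221% (28 genes) for the 16 other libraries against WT and 0.118% (15 genes) for any difference among the 5 genotypes. The 28 genes became 8 without WT replicate 3, 91 without hC4A/A replicate 2 and 0 with equal weight per genotype, and the 15 became 0 without hC4B/- replicate 3. At these sample sizes, with a biological coefficient of variation of 1.03 between libraries of 1 genotype, a p that misses the threshold does not show that levels were alike.

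The light chain B2m was the most abundant of the 10 genes. Its level, in CPM (counts scaled to library size, with factors from the trimmed mean of M values, TMM), was 3516, 3406, 5423 and 3089 in WT and 5060, 5088, 250, 3669 and 6116 in C4-/-. In hC4A/- it was 3890, 3906, 2953, 3387 and 3311.35, in hC4B/- 4004, 112, 335 and 4081, and in hC4A/A 3863 and 106. The 4 broad libraries were low and the other 16 stood together, spanning 2.07-fold between lowest and highest. With the broad libraries included, all genotypes overlapped. Among the 16, the hC4B/- libraries (4004 and 4081) lay above every hC4A/- library (2953 to 3906) and above the hC4A/A library (3863). The share of all genes that lie apart like this was not counted. Mean B2m was 3858 ± 1059 CPM in WT (SD, n = 4), 4037 ± 2288 in the 5 C4-/- libraries and 3490 ± 407 in the 5 hC4A/- libraries. It was 2133 ± 2207 CPM in the 4 hC4B/- libraries and 1985 ± 2657 in the 2 hC4A/A libraries. The comparison with the smallest p was hC4B/- against C4-/-, with a log2 fold change of -0.92 ± 0.98 (SE, edgeR adjusted p = 0.99). Without the 4 broad libraries that value was 0.026.

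H2-K1 encodes a classical heavy chain. Its CPM was 285, 252, 105 and 223 in WT, 97.8, 225, 41.3, 55.3 and 146 in C4-/-, and 396, 157, 54.9, 398 and 725 in hC4A/-. In hC4B/- it was 550, 30.2, 25.2 and 179, and in hC4A/A 247 and 24.6. Over the 16 libraries that are not broad the highest was 13.2 times the lowest, both in hC4A/-, and the 4 lowest of all 20 were the broad ones. Mean H2-K1 was highest in hC4A/-, at 346 ± 259 CPM (SD, n = 5), and lowest in C4-/-, at 113 ± 74.6 (n = 5). Without the broad libraries hC4B/- was above hC4A/-, at 365 ± 262 CPM (n = 2). The contrast of hC4A/- with C4-/- had the smallest p, with a log2 fold change of 1.62 ± 0.81 (SE, edgeR adjusted p = 0.477), and the groups overlapped.

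H2-D1, the other classical heavy chain, varied less. Its CPM was 174, 94.7, 103 and 83.3 in WT, 89.1, 79.3, 62.9, 90.8 and 255 in C4-/-, and 89.7, 54.3, 57.7, 126 and 287 in hC4A/-. The hC4B/- libraries had 185, 57.9, 72.8 and 89.2, and the hC4A/A libraries 110 and 33.7. The highest and the lowest of the 16 libraries that are not broad were both hC4A/-, 5.29-fold apart, and every pair of genotypes overlapped. Its smallest p was for hC4A/A against C4-/-, with a log2 fold change of -0.68 ± 0.85 (SE, edgeR adjusted p = 1). That value was -0.034 without hC4A/A replicate 2, a broad library, and -1.53 without replicate 1.

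Tap1, the first transporter subunit, stood apart in 1 library. It held 18, 5, 190 and 15 counts in WT, 11, 1, 26, 3 and 6 in C4-/-, and 6, 1, 10, 7 and 14 in hC4A/-. In the hC4B/- mice it held 17, 12, 23 and 3 counts, and in hC4A/A 3 and 6. WT replicate 3 had 146 CPM, while the other 3 WT libraries had 6.01, 3.56 and 6.09, and the highest of another genotype had 17 CPM. The other WT libraries thus lay within the range of the other genotypes. The log2 fold change was -2.73 ± 1.08 for C4-/- against WT (SE, edgeR adjusted p = 0.529) and -3.28 ± 1.11 for hC4A/- against WT (adjusted p = 0.422). For the 16 other libraries against WT it was -2.79 ± 0.77 (edgeR adjusted p = 0.158). Without WT replicate 3 these values were 0.19, -0.36 and 0.13. Tap1 was called in that last comparison only when no filter on low counts was used (log2 fold change -2.90, edgeR adjusted p = 0.0186). The 190 counts of WT replicate 3 split into 95 and 95 on the strand-specific columns. Over all genes 1 of these columns held 49.7% to 49.9% of their counts in every library. An even split therefore cannot tell strands apart. Tap1 shares 3.87% of its exon bases with Psmb9 on the opposite strand.

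Tap2, the other transporter subunit, had 14.7, 59.1, 49.8 and 17.9 CPM in WT, 4.03, 39.2, 5.90, 31.7 and 22 in C4-/-, and 8.97, 12.9, 48.7, 14.6 and 17 in hC4A/-. Values in hC4B/- were 9.40, 8.44, 7.49 and 10.2, and in hC4A/A 11.3 and 7.77. All 4 hC4B/- libraries lay below all 4 WT libraries, as did both hC4A/A libraries. Of these, replicates 2 and 3 of hC4B/- and replicate 2 of hC4A/A are broad. The share of all genes that lie apart from WT like this was not counted, here or for Psmb8, Psmb9, Psmb10 and Nlrc5 below. The log2 fold change for hC4B/- against WT was -1.98 ± 0.86 (SE, edgeR adjusted p = 0.362), and with each library left out in turn it stayed between -2.22 and -1.31. Tap2 was highest in WT replicate 2, where Tap1 was 3.56 CPM, and next highest in WT replicate 3, where Tap1 was highest.

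Tapbp, which holds the heavy chain at the transporter, was low in the same libraries as B2m. Its CPM was 1467, 1491, 3310.96 and 1080 in WT, 1705, 1698, 97.7, 1122 and 2321 in C4-/-, and 919, 1149, 978, 1393 and 807 in hC4A/-. In hC4B/- it was 1225, 61.5, 263 and 903, and in hC4A/A 1143 and 50.5. The 4 broad libraries were again the lowest, and WT replicate 3 was the highest of the 20. The log2 fold change for hC4B/- against WT, its smallest p, was -1.58 ± 0.94 (SE, edgeR adjusted p = 0.438). Without the broad libraries it was -0.58, and the mean in hC4B/- was 1064 CPM (n = 2) in place of 613. In the GENCODE annotation 29.0% of Tapbp's exon bases also lie in exons of Gm19412, on the opposite strand, or of Zbtb22.

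Psmb8 encodes an immunoproteasome subunit that replaces Psmb5. Its CPM was 29.0, 18.5, 29.9 and 30.9 in WT, 9.78, 9.32, 9.83, 23.6 and 29.3 in C4-/-, and 13.1, 23.6, 12.4, 50.3 and 43.2 in hC4A/-. The hC4B/- libraries had 44.0, 6.03, 57.2 and 18.3, and the hC4A/A libraries 15.8 and 2.59. The highest value of the 20 was in a broad library, hC4B/- replicate 3. WT lay above both hC4A/A libraries, and the log2 fold change there was -1.49 ± 1.06 (SE, edgeR adjusted p = 0.709). It was -3.29 without hC4A/A replicate 1 and -0.73 without the broad replicate 2. Psmb8 held 2 counts in hC4A/A replicate 2.

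Psmb9 replaces Psmb6. Its CPM was 7.34, 36.3, 146 and 43.1 in WT, 25.9, 12.1, 7.21, 18.3 and 24.6 in C4-/-, and 11, 54.3, 39.1, 49.7 and 114 in hC4A/-. In the hC4B/- mice it was 85.9, 6.03, 12.9 and 11, and in hC4A/A 6.13 and 5.18. WT replicate 3 was the highest, WT replicate 1 lay within the C4-/- range, and both hC4A/A libraries were below every WT library. Replicate 2 of hC4A/A is a broad library and held 4 Psmb9 counts. The log2 fold change was -1.71 ± 0.83 for C4-/- against WT (SE, edgeR adjusted p = 0.579) and -3.33 ± 1.29 for hC4A/A against WT (adjusted p = 0.558). Without WT replicate 3 these were -0.71 and -2.32.

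Psmb10, which replaces Psmb7, had 25.4, 24.2, 46.0 and 13.8 CPM in WT, 23.6, 8.39, 4.59, 20.4 and 41.3 in C4-/-, and 15.2, 10.2, 24.7, 11.7 and 27.2 in hC4A/-. Values in hC4B/- were 23.1, 9.65, 28.6 and 11.7, and in hC4A/A 6.45 and 6.48. Both hC4A/A libraries were below every WT library, with a log2 fold change of -2.07 ± 1.10 (SE, edgeR adjusted p = 0.607). Replicate 2 of hC4A/A is a broad library and held 5 Psmb10 counts. The other genotypes overlapped WT.

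Nlrc5, which switches on class I genes, was low everywhere, with 4 to 34 counts per library. Its CPM was 6.01, 4.27, 3.07 and 2.84 in WT, 19.6, 13.1, 4.59, 4.83 and 5.99 in C4-/-, and 5.52, 9.13, 3.43, 2.34 and 3.40 in hC4A/-. In hC4B/- it was 7.26, 9.65, 5.44 and 5.85, and in hC4A/A 7.74 and 16.8. Nlrc5 pointed the other way from the immunoproteasome genes in hC4A/A, where both libraries were above WT, with a log2 fold change of 1.56 ± 1.12 (SE, edgeR adjusted p = 0.709). Without the broad hC4A/A replicate 2 that was 0.96.

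**Figure D1:**
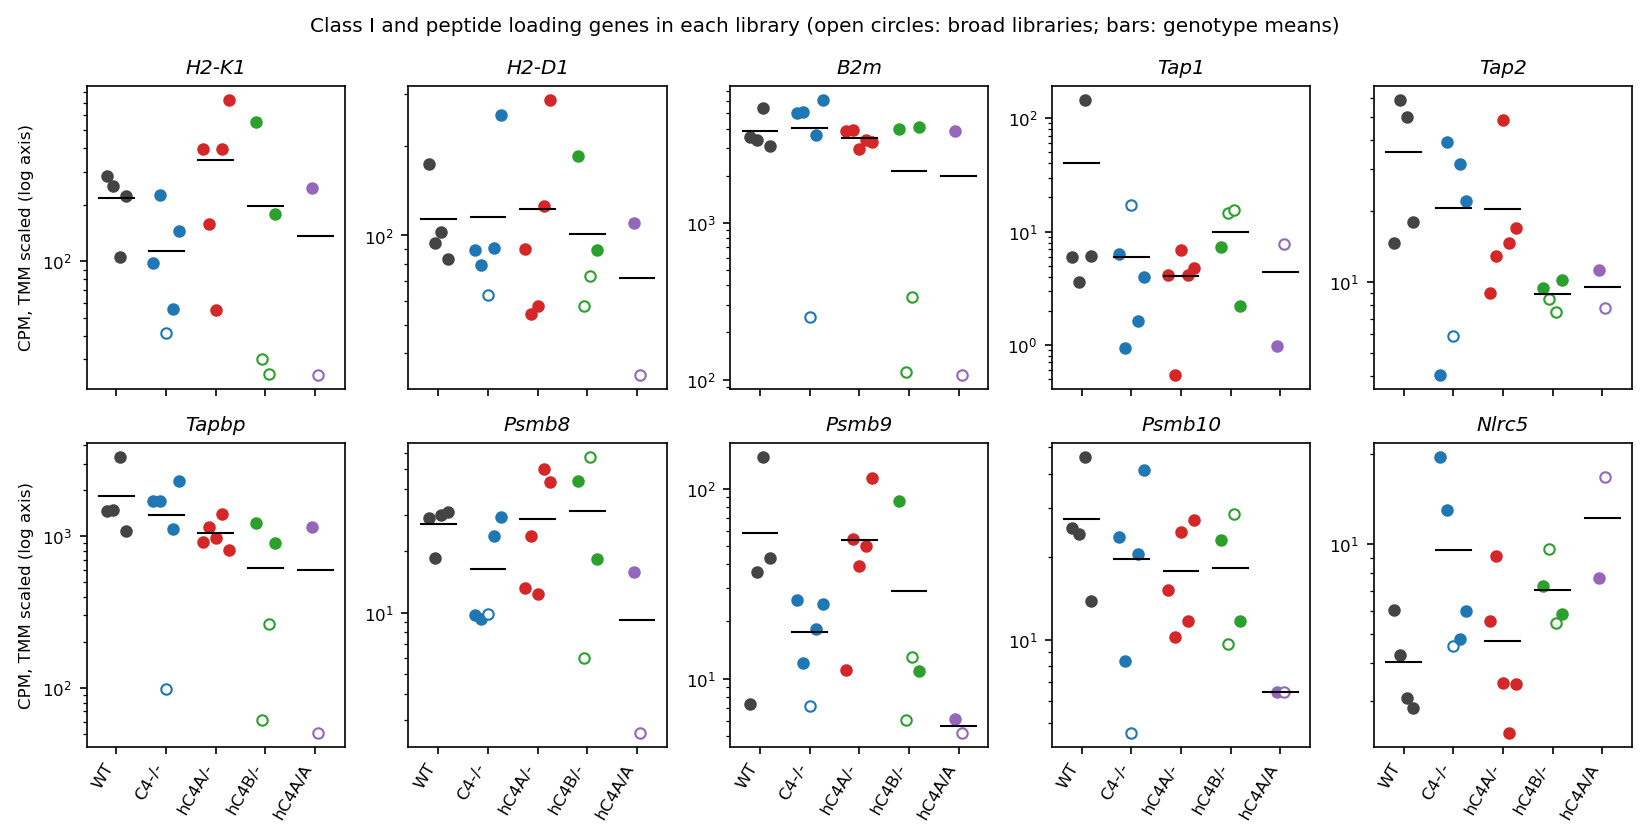
Level of each of the 10 genes in CPM scaled by TMM (log axis) for every library, by genotype; points are libraries, open circles the 4 broad libraries, and bars the mean over all libraries of a genotype. The 4 open circles lie below every filled circle for B2m, Tapbp and H2-K1, and 1 WT library stands at 146 CPM for Tap1.

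Counted over the members, the comparisons gave few low p values. At an unadjusted p under 0.05 by edgeR, 2 of 10 members passed for C4-/- against WT, where 8.55% of all genes did. For hC4A/- against WT 1 of 10 passed, beside 7.51% of all genes. For hC4B/- against WT it was 1 of 10, beside 13.1%, and for hC4A/A against WT 1 of 10, beside 8.41%.

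Against C4-/- no member passed at that level in hC4A/- (10.7% of all genes), hC4B/- (4.52%) or hC4A/A (2.17%). For hC4A/- that count of 0 was not stable, since 21 of 29 alternative settings gave 1 or 2 members. None passed for hC4A/- against hC4B/-, where 16.7% of all genes did. For the 16 other libraries against WT 1 member passed (Tap1), beside 9.33% of all genes. For any difference among the genotypes 2 members passed (Tap1 and Psmb9), beside 12% of all genes. Without WT replicate 3 no member passed for any of the 4 other genotypes against WT, for the 16 libraries against WT, or for any difference.

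By direction, 9 of 10 members were lower in hC4A/A than in WT, with a median log2 fold change of -1.56 beside 0.18 over all genes. Without the broad libraries that was 8 of 10, with a median of -0.73 beside -0.30, and rests on 1 hC4A/A library. In hC4B/- against WT 8 of 10 were lower, with a median of -0.71 beside 0.18 over all genes, and without the broad libraries 5 of 10 were lower, with a median of 0.09 beside -0.20. In C4-/- against WT 7 of 10 were lower, with a median of -0.60 beside 0.33 over all genes, and without the broad libraries 8 of 10, with a median of -0.48 beside 0.02. In hC4A/- against WT 6 of 10 were lower, with a median of -0.13 beside -0.05. These 4 comparisons share the same WT libraries.

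**Figure D2:**
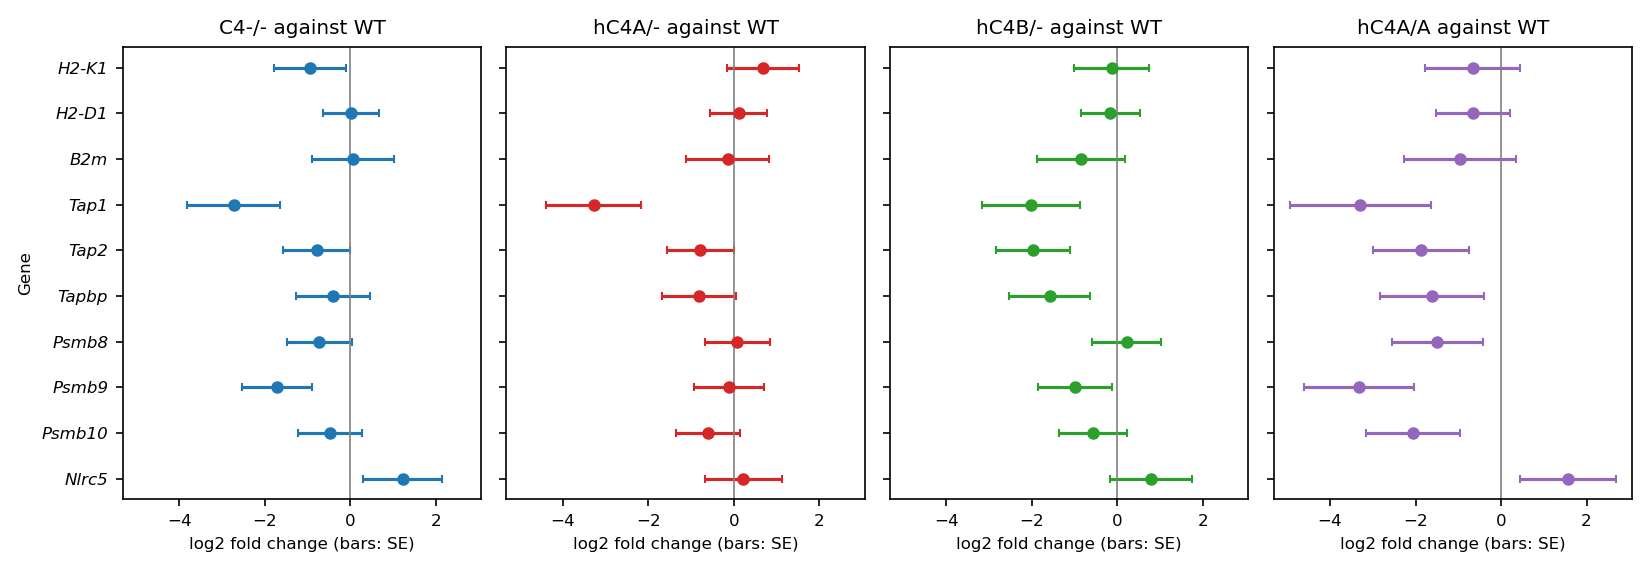
Log2 fold change of each gene (horizontal axis, bars are SE from edgeR) for the 4 other genotypes against WT, 1 panel each, fitted over all 20 libraries. Tap1 lies at -2.73 in C4-/- and -3.28 in hC4A/-, Psmb9 at -3.33 in hC4A/A, and no gene passed an adjusted p of 0.05.

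The difference between broad and other libraries was larger than any between genotypes for B2m, Tapbp and H2-K1. B2m counts were 82 to 492 where libraries were broad, against 4302 to 11981 in the other 16, and the median CPM of the 16 was 21.4 times that of the 4. Tapbp held 39 to 386 counts against 1236 to 4394, a ratio of medians of 14.9. For H2-K1 the ratio was 8.08. For these 3 of 10 members each of the 16 libraries lay above each broad one, which held for 7.05% of all genes tested. Without TMM scaling this held for B2m and Tapbp but not for H2-K1.

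Other members differed less or the other way between these libraries. The ratio of the 16 over the 4 was 4.70 for Psmb9, 2.98 for Psmb8, 2.70 for Psmb10, 2.08 for Tap2 and 1.53 for H2-D1. It was 0.753 for Nlrc5 and 0.273 for Tap1, and the median over all genes was 0.509. Without TMM scaling the ratio was 0.995 for Nlrc5 and 0.427 for Tap1, so only Tap1 had a higher median in the broad libraries either way. For both genes the broad and the other libraries overlapped. A ratio as large as that of B2m was reached by 2.11% of all genes and one as large as that of Tapbp by 3.02%.

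Microglia markers gave mixed ratios. The chemokine receptor Cx3cr1 was at 0.932, Tmem119 at 0.906 and the purinergic receptor P2ry12 at 1.36, while Csf1r, the receptor for colony stimulating factor, was at 0.302. Fcrls was at 8.03, Itgam (CD11b) at 4.54 and Ptprc (CD45) at 3.42. Without TMM scaling Cx3cr1 was at 1.45, Tmem119 at 1.32, P2ry12 at 1.75 and Csf1r at 0.509. The 10 markers together summed to 4019 to 7229 CPM in broad libraries, against 5546 to 9823 CPM elsewhere. Markers of other cells moved both ways: mural cell markers summed to 14.4 to 40.2 CPM in broad libraries against 0 to 25.6 elsewhere, and lymphocyte markers to 6.55 to 16.8 against 0 to 7.48. Neuron markers summed to 15.1 to 53.1 CPM against 2.69 to 196, astrocyte markers to 57.2 to 123 against 165 to 752, and oligodendrocyte markers to 36.8 to 76.0 against 103 to 362. Unmapped reads were 29.0% to 42.1% in broad libraries against 14.8% to 29.5% elsewhere, and Gm10800 took 40.4% to 65.9% of counts against 9.61% to 45.1%. The part of these in the lower B2m and Tapbp was not tested. In bulk libraries fewer cells of a type and less RNA per cell cannot be told apart, and what sets the broad libraries apart was not tested.

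**Figure D3:**
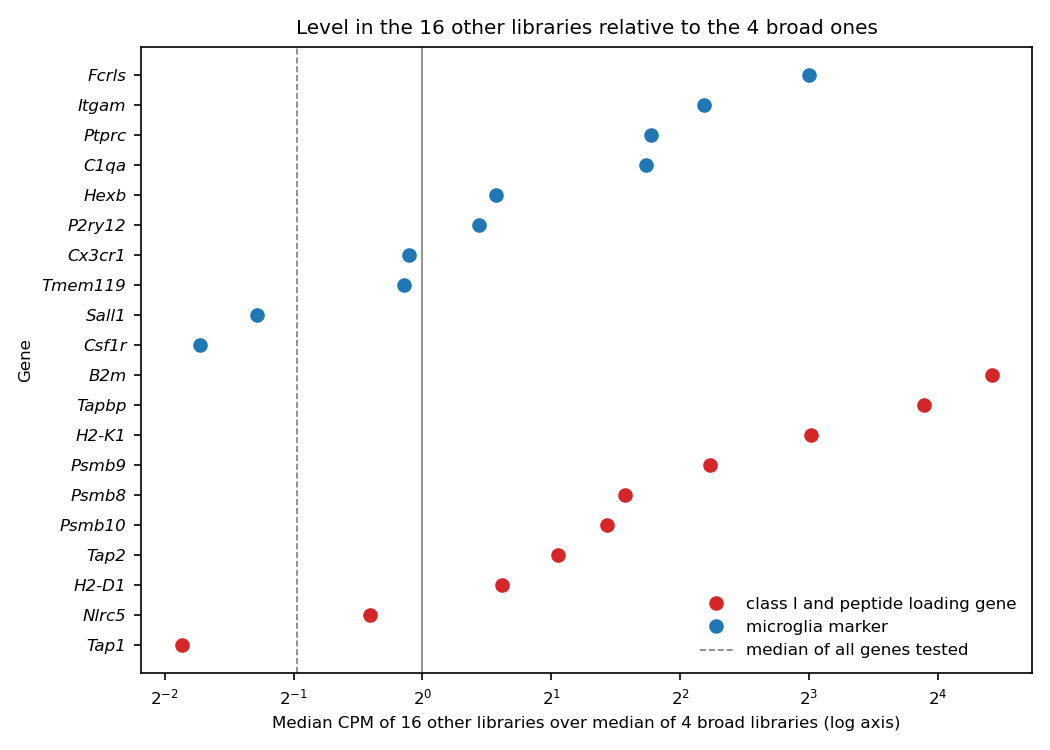
Median CPM of the 16 other libraries divided by the median of the 4 broad libraries (log axis) for the 10 class I and peptide loading genes (red) and 10 microglia markers (blue); the solid line is equality and the dashed line the median of all genes tested, 0.509. B2m (21.4) and Tapbp (14.9) lie to the right of every microglia marker, while Tap1 (0.273) lies to the left of all of them.

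WT replicate 3 was the highest of the 20 libraries for 4 of 10 members (Tap1, Tapbp, Psmb9 and Psmb10), and for 9.67% of all genes tested. It was the highest for 1 of 19 interferon response genes and 1 of 20 interferon signalling genes and class I regulators. Its summed neutrophil markers were 201 CPM, with Mmp8 and Ly6g at 0. Over the WT libraries that sum was 99.1 to 1423 CPM, with all 8 markers detected in at least 1 of them, and elsewhere it was 0 to 175. Lymphocyte markers summed to 2.30 CPM in WT replicate 3 and to 16.8 at most in any library. The part of other cells in the WT values was not tested.

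The other library that led for more than 1 member was hC4A/- replicate 5, highest for both heavy chains, H2-K1 and H2-D1, and for 9.21% of all genes. Its neutrophil markers summed to 1.70 CPM and its lymphocyte markers to 1.36 CPM.

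**Figure D4:**
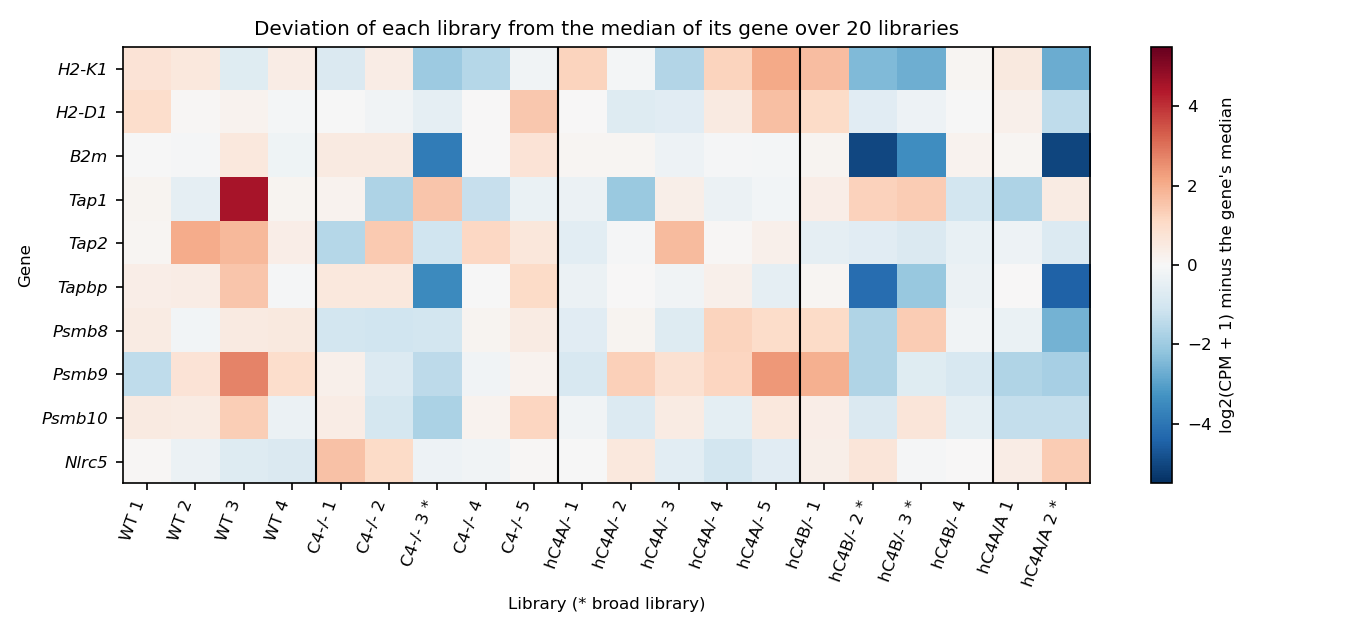
Log2(CPM + 1) of each gene (rows) in each library (columns, grouped by genotype, * marks a broad library) minus that gene's median over the 20 libraries, from blue (below) to red (above). B2m and Tapbp are blue in all 4 broad libraries, and the darkest red cell is Tap1 in WT replicate 3.

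Levels between genes were compared per kilobase of annotated exon, as CPM per kb, over the 16 libraries that are not broad. The length is the union of all annotated exons of a gene, so the order depends on the annotation. The medians were 4508 for B2m, 327 for Tapbp, 76.1 for H2-K1, 36.0 for H2-D1, 12.7 for Psmb10, 8.50 for Psmb9, 6.99 for Psmb8, 4.19 for Tap2, 0.752 for Tap1 and 0.669 for Nlrc5. B2m was above Tapbp in 16 of 16 libraries, Tapbp above H2-K1 in 15, and H2-D1 above Psmb10 in 16. Neighbours within the lower part of the order changed places often: Psmb10 was above Psmb9 in 10 of 16, Psmb9 above Psmb8 in 9, and Tap1 above Nlrc5 in 10.

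On the same scale, B2m was a median of 41.7 times the sum of the heavy chains H2-K1 and H2-D1 over the 16 libraries (10.8 to 86.7), and 3.99 to 10.6 times in the broad ones. H2-K1 was a median of 2.09 times H2-D1 over the 16 (0.502 to 3.88), and 0.304 to 0.641 times in the broad ones. It was above H2-D1 in 11 of the 16 and in none of the 4 broad libraries, and in the 4 C4-/- libraries that are not broad the median ratio was 0.749. The sum of Psmb8, Psmb9 and Psmb10 was a median of 0.867 times that of the constitutive Psmb5, Psmb6 and Psmb7 over the 16 (0.333 to 4.05). Which sum is larger can depend on the annotated lengths, 3381 bases for Psmb8 and 3660 for Psmb9. In WT replicate 1, for example, Psmb8 was 29.0 CPM and Psmb5 15.4, but per kb they were 8.59 and 17.1. In WT the ratio of the sums ran from 0.718 to 4.05, and in C4-/- libraries that are not broad from 0.370 to 0.861. It ran from 0.642 to 1.56 in hC4A/- and from 0.900 to 1.07 in the 2 hC4B/- libraries that are not broad, and was 0.333 in 1 hC4A/A library.

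Correlations among the members were mostly weak. Over the 45 pairs of members, Spearman's rho of log2 CPM over the 20 libraries had a median of 0.295 and ran from -0.588 (Psmb8 and Nlrc5) to 0.788 (B2m and Tapbp). Over the 16 libraries that are not broad the median was 0.0706. These points share library, depth and TMM factor, so rho is given as a description.

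The 5 genes most like the mean of the members over the 20 libraries, among 3671 compared, were Nfam1 (rho 0.883), Gm40466 (0.880), Usp22 (0.871), Cbfa2t3 (0.865) and Oaz1 (0.842). Over the 16 libraries their rho was 0.779, 0.806, 0.768, 0.738 and 0.724.

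Of 6 lists of related genes, none had a gene past an adjusted p of 0.05 by edgeR in any of the 10 comparisons. Other class I genes were mostly too low to test, with 7 of 16 tested. In hC4A/A against WT 1 had an unadjusted p under 0.05, upward, beside 8.41% of all genes. Cd1d1, which presents lipids, was 1.14 ± 0.853 CPM in WT (SD, n = 4) and 3.87 and 32.4 in the 2 hC4A/A libraries. The higher of these is broad, and libraries that are not broad reached 6.90 at most. Mr1, which presents vitamin B metabolites, was 0 to 10 CPM in the libraries that are not broad. H2-M3, which presents formylated peptides, was 5.84 ± 2.98 CPM in WT and 19.7 ± 18.9 in hC4A/- (SD, n = 5), with overlapping libraries.

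All 12 endoplasmic reticulum cofactors of loading were tested. Against WT, 1 had an unadjusted p under 0.05 upward in C4-/-, 1 downward in hC4B/- and none in hC4A/- or hC4A/A. The shares of all genes were 8.55%, 13.1%, 7.51% and 8.41% in that order. Tapbpl, a relative of tapasin, was 8.05 ± 4.43 CPM in WT (SD, n = 4) and 33.3 ± 41.9 in C4-/- (n = 5), where libraries ran from 2.80 to 105. Erap1, which trims peptides, was 75.9 CPM in WT replicate 3, the highest of the 20 libraries, and 3.67 CPM in the lowest WT library. Ganab, a glucosidase subunit, was 3.72 ± 2.58 CPM in WT and 0.932 to 39.98 in C4-/-, where the highest is the broad library. Libraries that are not broad reached 10.4 CPM at most, and the 4 broad ones held 12.9 to 39.98.

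All 8 genes for constitutive catalytic subunits and proteasome activators were tested. Of these, 1 had an unadjusted p under 0.05, upward, in hC4A/- against WT, beside 7.51% of all genes. The list's median log2 fold change for the 16 other libraries against WT was 0.33, with 7 of 8 above 0, beside 0.15 over all genes and -0.55 over the class I members, of which 9 of 10 were below 0. Without the broad libraries the members' median was -0.35, with 6 of 10 below 0. Psme4, a proteasome activator, was 53.2 ± 40.8 CPM in WT (SD, n = 4) and 100 ± 59.9 in hC4A/- (n = 5). Psmb7, replaced by Psmb10, was 1.37 ± 0.543 CPM in WT and 7.46 ± 5.12 in hC4A/-, and Pomp, an assembly factor, was 19.2 ± 7.09 CPM in WT and 28.7 ± 22 in C4-/- (n = 5).

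Of the interferon signalling genes and class I regulators, 20 of 21 were tested. Against WT, 1 gene had an unadjusted p under 0.05 in each of the 4 genotypes, upward each time. Rfx5 and Rfxank, parts of a factor on class I and class II promoters, were 0.293 ± 0.369 and 6.86 ± 5.99 CPM in WT (SD, n = 4), and 0.489 ± 0.474 and 35.5 ± 12.1 in hC4A/- (n = 5).

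Of the interferon response genes 19 of 26 were tested. In the comparison over all genotypes 2 had an unadjusted p under 0.05, beside 12% of all genes. Mx1, an antiviral GTPase, was 15.7 ± 15.2 CPM in WT (SD, n = 4) and 0.383 ± 0.355 in hC4A/- (n = 5), with an edgeR adjusted p of 0.323 over the 5 genotypes. In WT replicate 3 Mx1 was 2.30 CPM, the lowest WT value. Ifi204, a DNA sensor, was 6.84 ± 2.12 CPM in WT and 1.06 ± 1.13 in C4-/- (n = 5), and its highest library was hC4A/-, at 146 CPM. Oasl2 was 0.561 ± 0.730 CPM in WT and 9.45 ± 14.1 in C4-/-.

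Of the class II genes 6 of 10 were tested. In hC4B/- against WT 1 had an unadjusted p under 0.05, downward, beside 13.1% of all genes. H2-Ob, a modulator of class II loading, was 150 ± 96.7 CPM in WT (SD, n = 4) and 13.5 ± 16.3 in hC4B/- (n = 4), and lay between 5.44 and 7.87 CPM in the 4 broad libraries. H2-Ab1, a class II chain, was 4.09 ± 4.07 CPM in WT, and Ciita, the class II transactivator, was 0.771 ± 0.723.

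Shared sequence could take reads from the counts of the heavy chains, since multimapping reads stayed out. Of the distinct 50-base stretches of the annotated transcripts, 9.63% of H2-K1 and 12.8% of H2-D1 also occur in transcripts of another gene. The share was 2.87% for Tapbp, 0.655% for Tap2, 0.442% for Tap1 and 0.227% for Psmb8, and 0% for B2m, Psmb9, Psmb10 and Nlrc5. In this respect alone, H2-K1 and H2-D1 counts are less certain than the others. The share of exon bases that also lie in exons of other genes was largest for Tapbp (29.0%), Tap2 (18.5%) and Psmb8 (14.7%), and 0% for both heavy chains.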

How the data were processed

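The authors deposited raw counts of reads per gene for each library, in the layout STAR writes. The build GRCm38 and the tools STAR and edgeR are named in the submitters' processing notes. No version or annotation release is given in those notes. The column of deposited counts that ignores strand was used, so reads from overlapping genes on opposite strands cannot be told apart. Reads without a gene, multimapping, unmapped or ambiguous stayed out: these took 21.8% to 42.1%, 13.2% to 28.9%, 14.8% to 42.1% and 0.897% to 5.86% of reads. A matrix of the whole series was not used.

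Identifiers were named from GENCODE annotation of GRCm38 (54723 of 54838 had a symbol). Genes were filtered with filterByExpr by genotype and scaled by TMM, and 1 edgeR quasi-likelihood model (edgeR 4.0.16, R 4.3.3) held 1 coefficient per genotype, with 15 residual degrees of freedom. The standard error is the log2 fold change divided by the square root of F. The contrast of the 16 other libraries weights genotypes by their libraries. The edgeR, voom and DESeq2 fits were run on simulated counts for hC4A/- against WT and for any difference. The other comparisons and settings were not. DESeq2 1.42.0 and limma 3.58.1 (voom) served as alternatives. Chi-square per degree of freedom was 26.3 to 142 for the 33 pairs of libraries of 1 genotype, far above sampling noise, so none were copies. The cDNA was amplified and reads carry no molecular identifiers, and error from counting alone is not given.

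Groups and replicate numbers come from the titles. The numbers did not pair the samples. The members and lists were chosen with earlier results of these data known. A member's log2 fold change is printed where its unadjusted p is under 0.05, and otherwise for its comparison of smallest p; of each list the 3 genes of smallest p over the 5 genotypes are named, except 1 that is not reported here; likeness is Spearman's rho with the members' mean log2 CPM (prior count 2) among genes of mean log2 CPM of 4 or more. A planned comparison of protein sequences was not run. Promoter sequences are RefSeq's.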

Additional observations from a re-analysis of the deposited data

Results flagged for a closer look

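In groups of 4 or 5 libraries, 5 of 40 combinations of gene and genotype held 1 library far from the rest, by the gap to its nearest neighbour over the range of the group. The nominal rate of this rule, about 1 in 20, is for independent values with a normal spread. These CPM values share libraries and were not transformed, so 5 of 40 is not read as more than chance. Tap1 was 146 CPM in WT replicate 3, with the next WT library at 6.09. H2-D1 was 255 CPM in C4-/- replicate 5, with the next at 90.8. Tap2 was 48.7 CPM in hC4A/- replicate 3, with the next at 17. Psmb9 was 85.9 CPM in hC4B/- replicate 1, with the next at 12.9, although replicates 2 and 3 of that genotype are broad libraries. Psmb8 was low, at 18.5 CPM, in WT replicate 2, with the next at 29.0.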

How the results depend on the processing

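Of 376 alternative values for the 13 log2 fold changes of members, 3 changed sign: B2m in hC4B/- against C4-/- was 0.026 without the broad libraries, and without WT replicate 3 Tap1 was 0.19 in C4-/- against WT and 0.13 in the 16 other libraries against WT. Just 1 gained a call, Tap1 in the 16 against WT with no filter on low counts, where 1 member was called. Counts of genes called over the whole table depended on the setting, and the cause was not tested. With no filter they were, against WT, 26 for C4-/-, 65 for hC4A/-, 28 for hC4B/- and 3 for hC4A/A, then 53 and 16 for hC4A/- and hC4B/- against C4-/-, 36 for hC4A/- against hC4B/-, 343 for the 16 against WT and 697 for any difference. With DESeq2 they were, against WT, 24 for C4-/-, 39 for hC4A/-, 55 for hC4B/- and 4 for hC4A/A, then 15, 3 and 1 for hC4A/-, hC4B/- and hC4A/A against C4-/-, 93 for hC4A/- against hC4B/- and 71 for any difference. Fitting only the groups of a contrast gave 1 gene each for hC4A/- against WT, hC4B/- against WT and hC4A/- against hC4B/-. Voom gave 1 gene for hC4A/- against WT, 1 for hC4A/- against C4-/-, 3 for the 16 against WT and 0 for any difference. Without the broad libraries 1 gene was called for hC4A/- against WT, 12 for the 16 against WT and 2 for any difference. For the 16 against WT, RLE scaling gave 13, leaving out satellite-like genes 46, and a minimum of 10 counts in 4 libraries 5. Equal weight per genotype, an alternative chosen after seeing the data, gave 0 genes in place of 28. For any difference, RLE scaling gave 24 and the minimum of 10 counts 0.

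With 1 library left out in turn, the 16 against WT gave 8 (without WT replicate 3) to 91 genes (without hC4A/A replicate 2), any difference 0 (without hC4B/- replicate 3) to 34 (without hC4B/- replicate 4), hC4A/- against hC4B/- 0 to 8 (without hC4B/- replicate 1), hC4B/- against WT 0 to 2 and hC4A/A against WT 0 to 1 (both highest without hC4A/A replicate 1). The log2 fold change of Tap1 ran from -3.52 to 0.19 in C4-/- against WT and from -3.15 to 0.13 in the 16 against WT. A fit that leaves 1 hC4A/A library assumes that it varies like the other groups. Same-numbered libraries of different genotypes did not deviate together (median correlation 0.00833 over 33 pairs, -0.301 to 0.697), so the numbers do not pair samples. With the replicate block 3 genes were called for the 16 against WT, 0 for any difference and 0 in each other comparison. Of 80 alternative mean levels, 2 moved by more than 1 SD, both among the 50 without TMM. For the 30 without the broad libraries this rule cannot show stability, since the SD includes those same low libraries. Mean B2m in hC4B/- rose there from 2133 to 4043 CPM, beside an SD of 2207. Depth limits Tap1 and Nlrc5, with as few as 1 and 4 counts in a library. It also limits Psmb8, Psmb9, Psmb10 and Tap2, with as few as 2, 4, 5 and 6.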
